A study of Mus musculus with 6 samples.

Results

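Wnt signalling genes were followed in whole mouse skin 5 days after birth: 42 genes, measured by 52 probe sets, out of 8251 named genes and 12422 probe sets besides controls. Membership went by gene symbol, taking the numbered Wnt, Fzd, Sfrp, Dkk and Dvl genes together with Lef1, Tcf7l1, Tcf7l2, Axin1, Axin2, Frzb, Lrp5, Lrp6, Apc, Tle1 and Tle3. Tcf7, Gsk3b, Wif1 and Tle2 belong to the same rule, had no probe set under those symbols and were not analysed here. By role, 14 of the genes encode ligands, 10 receptors, 7 secreted inhibitors, 6 cytoplasmic transducers and 5 nuclear factors. The samples were 3 of FVB, an inbred albino mouse strain, and 3 of GC13, transgenic mice with overexpressed Hoxc13, a homeodomain factor of the hair follicle, and each sample had its own array. Hoxc13 itself was not analysed here. What drives the transgene, the strain that GC13 was kept on and whether the samples are separate mice are facts that the sources used here do not give. The p-values thus reflect the spread between samples, and that spread may be technical.

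Wnt proteins are secreted ligands that bind Frizzled receptors. With an Lrp5 or Lrp6 coreceptor they act through Dvl proteins to stop the Axin, Apc and Gsk3b complex from destroying beta-catenin, which then joins Lef1 or Tcf factors on DNA and switches on target genes, while Wnt5a and Wnt11 are known mostly for signals that do not use beta-catenin. In skin, Wnt signals start hair follicles, sustain the dividing hair matrix and drive the making of the hair shaft.

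A sign of RNA quality differed between the arrays. For Gapdh, the signal at the 3' end over that at the 5' end, a ratio that is high where messenger RNA has lost its 5' part, lay between 0.894 and 0.958 in FVB and was 2.22, 9.58 and 2.19 on GC13 replicates 1, 2 and 3 (exact two-sided permutation test, p = 0.1, the smallest that 3 against 3 arrays can give). For beta-actin, GC13 replicate 2 had 3.80, and the other arrays had between 1.16 and 1.43 (exact two-sided permutation test, p = 0.2). The line and the state of the RNA therefore cannot be told apart. GC13 replicate 2 stood apart from the rest, so results are given with and without it. All 7 keratinocyte, 8 hair follicle and 7 dermal fibroblast markers listed were measured, and 1 of them, a keratinocyte marker, stayed under an intensity of 5 on every array. Only 4 of the keratinocyte markers had enough mean signal to be tested, and Krt5, Krt14 and Krt15 did not. In RNA of whole skin, fewer cells of a type and less RNA per cell cannot be told apart.

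With all 6 arrays, none of the Wnt pathway probe sets passed the test between GC13 and FVB. Of the 52 probe sets 43, for 36 genes, had enough mean signal to be tested. By limma, with Benjamini-Hochberg adjustment over all 9316 tested probe sets, 0 of the 43 passed at 0.05, where 0.472% of all tested probe sets passed (0.0859% with GC13 higher and 0.386% with GC13 lower). At an unadjusted limma p under 0.05, 12 of the 43 passed (27.9%, against 15.5% of all tested probe sets). GC13 was higher in 7 of these (background 8.52%) and lower in 5 (background 6.93%). The 43 leaned to neither side, with 23 above and 20 below 0 and a median difference of 0.05, against 0.08 over all tested probe sets. Differences throughout are GC13 minus FVB in log2(intensity + 2), each array centred on its median, a scale that understates the change of dim genes.

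Without GC13 replicate 2, 8 of the 43 passed (18.6%), near the 14.8% of all tested probe sets that did. GC13 was higher in 5 of these, for Sfrp2, Tcf7l1 and Fzd4 (background 6%), and lower in 3, for Wnt5a, Wnt11 and Fzd1 (background 8.8%). With array weights, which count deviating arrays for less, 17 of the 43 passed, 12 higher and 5 lower, where 41.3% of all tested probe sets passed (22% higher and 19.3% lower). The intensities of the groups did not overlap in 14 of the 43 (32.6%, background 22.9%), 6 with GC13 higher (background 10.6%) and 8 lower (background 12.3%). On the centred scale this held for 16 (background 24.5%), 9 higher (background 14.6%) and 7 lower (background 9.91%). Without GC13 replicate 2 the intensities did not overlap in 24 (background 55.2%), 16 higher (background 28.7%) and 8 lower (background 26.5%).

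**Figure D1:**
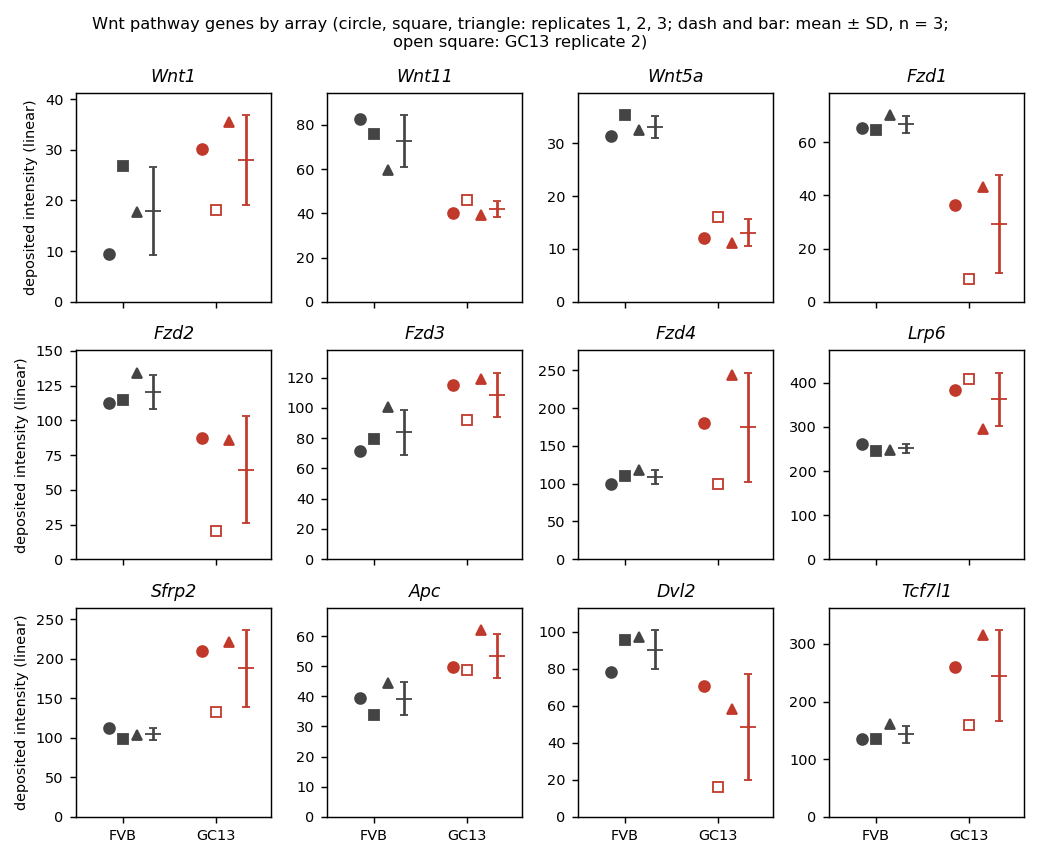
Deposited intensity (linear axis from 0) on each of the 6 arrays for the 12 Wnt pathway genes with the smallest unadjusted p; circles, squares and triangles are replicates 1, 2 and 3, the open square is GC13 replicate 2, and dash and bar give the mean ± SD of 3 arrays. Wnt5a ran from 31.3 to 35.3 in FVB and from 11.2 to 16.0 in GC13, while Fzd1, Fzd2 and Dvl2 were lowest on GC13 replicate 2.

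Among the ligands, Wnt5a and Wnt11 were lower on every GC13 array, while Wnt3, Wnt10a and Wnt10b, known for beta-catenin signals in hair, overlapped between the groups. Wnt5a, a ligand of the dermal papilla and hair matrix, gave intensities of 31.3, 35.3 and 32.6 (FVB) against 12.1, 16.0 and 11.2 (GC13), in the order of replicates 1, 2 and 3 as for all genes here. No GC13 array came near FVB, and the highest GC13 value was that of replicate 2. The means were 33.1 ± 2.03 (SD, n = 3) and 13.1 ± 2.54 (SD, n = 3), 2.23-fold lower in GC13 by the fit. That difference, -1.16 log2 units (SE 0.25, adjusted p = 0.108 by limma), missed the threshold. Leaving out GC13 replicate 2 gave -1.38 (SE 0.15, adjusted p = 0.00739 by limma).

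Wnt11, known for cell movement and polarity, gave 82.7, 75.7 and 59.8 (FVB) against 40.3, 46.1 and 39.2 (GC13). The groups did not overlap, and FVB spread more widely than GC13. The difference was -0.69 log2 units (SE 0.25, adjusted p = 0.248 by limma), and without GC13 replicate 2 it was -0.85 (SE 0.20, adjusted p = 0.0387 by limma). The 250 bases before a Wnt11 start in RefSeq (GRCm38.p6, chr7:98834862-98835111, plus strand) are shown because Wnt11 passed in that fit and the window holds a word that Lef1 and Tcf factors are known to bind. Capitals mark that word, which is CTTTGAT on the minus strand and ends 44 bases before the start.
Wnt11: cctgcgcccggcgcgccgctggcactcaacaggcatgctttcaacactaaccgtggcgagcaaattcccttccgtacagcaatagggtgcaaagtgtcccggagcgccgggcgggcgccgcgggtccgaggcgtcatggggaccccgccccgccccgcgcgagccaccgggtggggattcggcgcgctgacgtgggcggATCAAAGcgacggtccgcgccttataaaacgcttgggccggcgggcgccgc

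The search took CTTTGAA or its variant CTTTGAT, and also CTTTGTA or its variant CTTTGTT, on both strands. At least 1 of these 4 words stood in 14.8% of the 32851 windows of this length in the RefSeq table. Windows were found for 27 of the 42 genes, 34 in all, of which 6 held a word (17.6%). None was found for Wnt5a, which was therefore not searched. The window before another Wnt11 start (chr7:98838595-98838844, plus strand) held none, nor did those of Fzd1, Fzd4 and Tcf7l1. Such a match describes letters and is not shown to be a site.

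Wnt5b, the closest relative of Wnt5a, gave 20.2, 18.6 and 22.4 (FVB) against 17.7, 9.43 and 16.7 (GC13). There was no overlap, yet the gap was small against the spread, at -0.39 log2 units (SE 0.22, adjusted p = 0.438 by limma), and the lowest value was that of GC13 replicate 2. Wnt5a, Wnt5b and Wnt11 were thus the 3 tested ligands without overlap, all lower in GC13, 3 of 10, where 12.3% of all tested probe sets were lower without overlap and 22.9% did not overlap in either direction. The grouping was made after their values were seen.

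Wnt3, which helps dermal papilla cells keep their power to induce hair, gave 110.2, 127 and 117 (FVB) against 117, 102 and 96.3 (GC13). Wnt10a, whose loss leaves hair sparse, gave 133, 113 and 134 (FVB) against 124, 108 and 157 (GC13). Wnt10b, an early ligand of the follicle, gave 22.0, 26.1 and 21.4 (FVB) against 23.7, 14.9 and 28.4 (GC13). In each of these the GC13 arrays ran into the FVB range. The 95% intervals of the difference were -0.58 to 0.39 for Wnt3, -0.37 to 0.56 for Wnt10a and -0.52 to 0.49 for Wnt10b.

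Wnt4, a ligand of epidermis and dermis, gave 176, 158 and 146 (FVB) against 227, 60.2 and 185 (GC13). Its GC13 arrays parted, replicates 1 and 3 above every FVB array and replicate 2 far below. The difference was -0.15 with all arrays and 0.34 without replicate 2. Wnt6, a ligand of skin epithelium, gave 42.7, 38.6 and 40.4 (FVB) against 53.9, 15.2 and 39.2 (GC13), again with replicate 2 the lowest. Wnt1 gave 9.50, 26.9 and 17.7 (FVB) against 30.1, 18.2 and 35.6 (GC13), with FVB itself spread widely. Its difference was 0.71 log2 units (SE 0.34, adjusted p = 0.366 by limma), and without FVB replicate 1 it was 0.38 (adjusted p = 0.799 by limma). Wnt3a, a standard activator of beta-catenin in culture, ran from 27.1 to 35.6 in FVB and from 26.9 to 39.4 in GC13. Wnt2b, Wnt7a, Wnt7b, Wnt8a and a further pair of Wnt10b probe sets were too dim to be tested, and no untested member exceeded an intensity of 9.89 on any array.

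Among the receptors, Fzd4 was higher in GC13 with all of its probe sets on the centred scale, while Fzd1 and Fzd2 were lower. Fzd4, which serves Wnts and Norrin in blood vessels, had 3 probe sets, and the brightest gave 99.5, 109.7 and 118 (FVB) against 180.3, 98.9 and 244 (GC13). GC13 replicate 2 lay just under FVB here, and replicates 1 and 3 lay above every FVB array. The difference was 0.65 log2 units (SE 0.27, adjusted p = 0.306 by limma), and 0.91 (SE 0.17, adjusted p = 0.0227 by limma) without replicate 2. The dimmest Fzd4 probe set gave 10.9, 4.96 and 11.2 (FVB) against 25.1, 20.4 and 23.9 (GC13), with no overlap and replicate 2 near the other GC13 arrays. For it the difference was 1.32 log2 units (SE 0.29, adjusted p = 0.112 by limma), and 1.30 (SE 0.31, adjusted p = 0.0416 by limma) without replicate 2. The middle probe set gave 19.7, 21.8 and 21.5 (FVB) against 24.6, 22.0 and 28.6 (GC13), also without overlap, and differed by 0.30.

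Fzd3, known for planar polarity and axon guidance, gave 71.8, 79.3 and 100.5 (FVB) against 115, 91.7 and 119 (GC13). Only replicate 2 of GC13 lay within the FVB range, and on the centred scale no array did. The difference was 0.44 log2 units (SE 0.20, adjusted p = 0.348 by limma). A dimmer Fzd3 probe set gave 10.8, 1.71 and 11.5 (FVB) against 18.9, 9.69 and 18.5 (GC13), which overlapped. It differed by 1.07 log2 units (SE 0.49, adjusted p = 0.348 by limma), with FVB replicate 2 far below the other FVB arrays.

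Fzd1 gave 65.2, 64.6 and 70.2 (FVB) against 36.5, 8.41 and 43.1 (GC13). Every GC13 array was below every FVB array, and replicate 2 was far below the other GC13 arrays. The difference was -1.31 log2 units (SE 0.45, adjusted p = 0.231 by limma). It was nearer to 0 with a smaller error when replicate 2 was left out, at -0.74 (SE 0.14, adjusted p = 0.0271 by limma). Fzd2, of the same subfamily as Fzd1 and Fzd7, gave 112, 115 and 134 (FVB) against 87.4, 20.4 and 85.8 (GC13), again without overlap and with replicate 2 the lowest. Its difference was -1.05 log2 units (SE 0.45, adjusted p = 0.314 by limma), and -0.49 (SE 0.15, adjusted p = 0.0793 by limma) without replicate 2. Fzd7 gave 16.7, 23.8 and 28.9 (FVB) against 21.4, 7.29 and 23.4 (GC13), and only GC13 replicate 2 left the FVB range.

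Fzd6, which sets the direction of hairs, gave 30.0, 21.6 and 26.2 (FVB) against 22.2, 11.4 and 28.8 (GC13), and once more only GC13 replicate 2 left the FVB range. Fzd8 gave 29.2, 31.0 and 36.4 (FVB) against 48.3, 20.8 and 49.4 (GC13), with replicates 1 and 3 above FVB and replicate 2 below, and its difference without replicate 2 was 0.56 (SE 0.15, adjusted p = 0.0581 by limma). Fzd9 was dim, running from 7.81 to 13.2 in FVB and from 4.28 to 16.6 in GC13.

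Lrp6, the coreceptor that works beside a Frizzled, gave 262, 244 and 248 (FVB) against 385, 409.7 and 296 (GC13). The groups did not overlap, and GC13 replicate 2 was the highest array. The difference was 0.59 log2 units (SE 0.25, adjusted p = 0.319 by limma), and 0.40 (SE 0.19, adjusted p = 0.186 by limma) without replicate 2, while a further Lrp6 probe set was too dim to be tested. Lrp5, the other coreceptor, gave 11.8, 6.81 and 6.04 (FVB) against 17.6, 2.52 and 8.60 (GC13), on both sides of FVB.

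**Figure D2:**
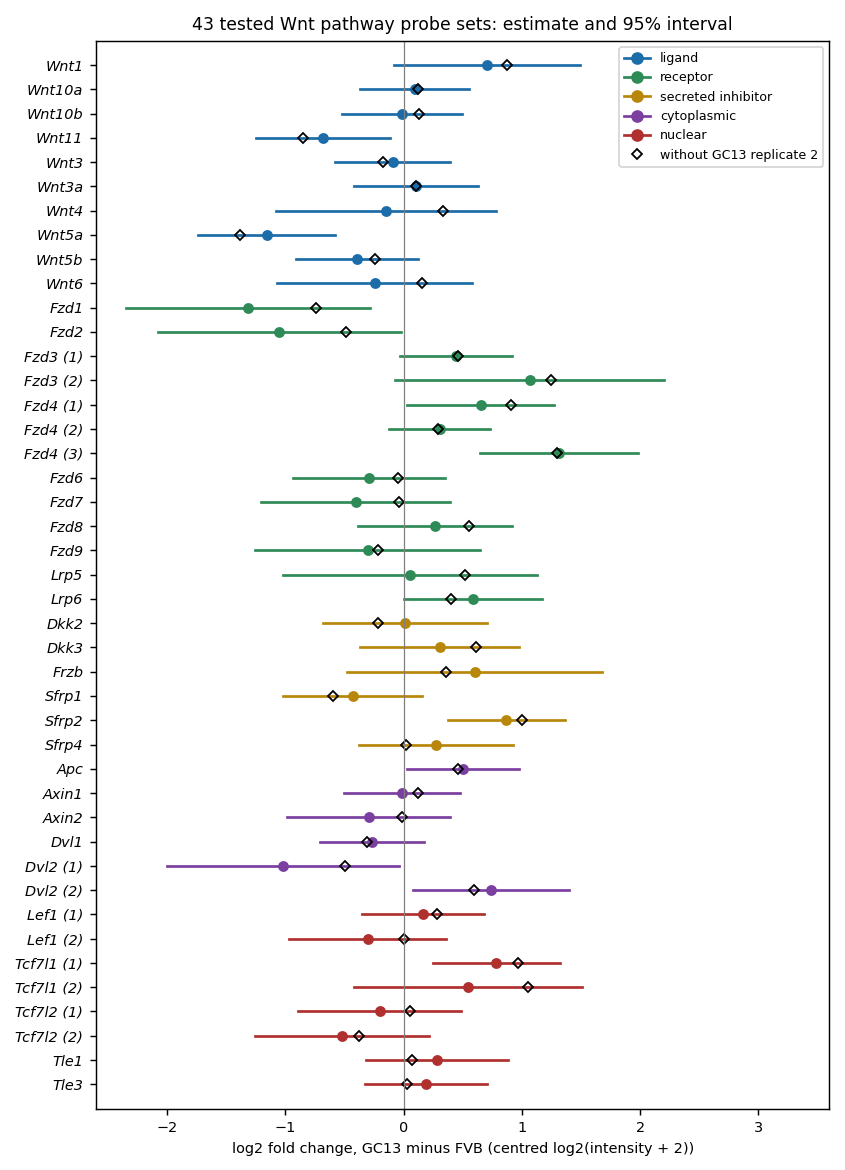
Log2 difference (GC13 minus FVB, x axis) of the 43 tested Wnt pathway probe sets in order of role, with points for the estimate from 6 arrays, lines for its 95% interval and open diamonds for the estimate without GC13 replicate 2; bracketed numbers rank the probe sets of a gene from bright to dim. The intervals, which are not adjusted for the number of probe sets, lay, among others, below 0 for Wnt5a (-1.73 to -0.58) and above 0 for Sfrp2 (0.37 to 1.36), and no probe set passed the adjusted test.

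Among the secreted inhibitors, Sfrp2 was higher on every GC13 array and Sfrp1 was lower. Both are decoys that bind Wnts outside the cell. Sfrp2, made by dermal fibroblasts, gave 112, 98.2 and 104 (FVB) against 210.0, 132 and 221 (GC13). GC13 replicate 2 was the nearest to FVB. The means were 105 ± 7.14 (SD, n = 3) and 188 ± 48.4 (SD, n = 3), 1.83-fold higher in GC13 by the fit. The difference was 0.87 log2 units (SE 0.21, adjusted p = 0.138 by limma) with all arrays and 1.0 (SE 0.15, adjusted p = 0.0152 by limma) without replicate 2. The 250 bases before the Sfrp2 start in RefSeq (GRCm38.p6, chr3:83766071-83766320, plus strand) are shown to set beside those of Wnt11, since Sfrp2 passed in the same fit in the other direction, and they hold none of the 4 words.
Sfrp2: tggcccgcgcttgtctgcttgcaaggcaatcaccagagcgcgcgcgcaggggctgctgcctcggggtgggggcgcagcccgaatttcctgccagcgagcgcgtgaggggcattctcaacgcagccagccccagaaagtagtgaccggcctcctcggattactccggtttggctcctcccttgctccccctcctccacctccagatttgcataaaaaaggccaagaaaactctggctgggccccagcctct

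Sfrp1 gave 96.1, 107 and 76.1 (FVB) against 51.5, 70.8 and 72.8 (GC13). The intensities did not overlap, but the centred values did. The difference was -0.43 log2 units (SE 0.25, adjusted p = 0.458 by limma), and without GC13 replicate 1 it was -0.26 (adjusted p = 0.704 by limma). Sfrp4, a decoy too, ran from 50.6 to 59.9 in FVB and from 50.6 to 80.6 in GC13. Frzb, a related decoy, was dim and gave 5.49, 9.29 and 6.20 (FVB) against 19.0, 13.5 and 4.35 (GC13), so that 1 GC13 array lay below FVB and the others above.

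Dkk1 and Dkk2 bind the Lrp coreceptors, whereas the part of Dkk3 in Wnt signalling is less settled. Dkk3 gave 77.4, 79.7 and 91.0 (FVB) against 135, 55.1 and 123 (GC13). GC13 replicate 2 was the lowest of all arrays, and replicates 1 and 3 were the highest. The difference was 0.31 log2 units (SE 0.29, adjusted p = 0.65 by limma), and 0.61 (SE 0.16, adjusted p = 0.0516 by limma) without replicate 2. Leaving out GC13 replicate 1 instead gave 0.09 (adjusted p = 0.925 by limma). Dkk2 was dim, running from 7.74 to 8.62 in FVB and from 4.34 to 10.2 in GC13. Dkk1 was too dim to be tested.

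Among the cytoplasmic transducers, Dvl1 was lower and Apc higher on every GC13 array, and the probe sets of Dvl2 disagreed. Dvl2, a Dishevelled protein that relays the signal from Frizzled, gave 78.3, 95.7 and 97.2 (FVB) against 71.0, 16.3 and 58.3 (GC13) with its brighter probe set. The groups did not overlap, and replicate 2 was the lowest by far. The difference was -1.02 log2 units (SE 0.43, adjusted p = 0.309 by limma), and -0.49 (SE 0.18, adjusted p = 0.109 by limma) without replicate 2. The dimmer Dvl2 probe set gave 13.9, 17.9 and 9.61 (FVB) against 25.4, 24.1 and 18.6 (GC13), a difference the other way of 0.74 log2 units (SE 0.29, adjusted p = 0.281 by limma). Dvl2 therefore has no single direction in these data.

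Dvl1 gave 165, 189 and 183 (FVB) against 146, 131 and 146 (GC13). Its groups did not overlap, with a difference of -0.26 log2 units (SE 0.19, adjusted p = 0.543 by limma), and Dvl3 was too dim to be tested. Apc, a scaffold of the complex that destroys beta-catenin, gave 39.4, 33.7 and 44.5 (FVB) against 49.6, 48.9 and 62.0 (GC13). Replicate 2 was here close to replicate 1, and the difference was 0.50 log2 units (SE 0.21, adjusted p = 0.299 by limma), or 0.46 (SE 0.18, adjusted p = 0.117 by limma) without replicate 2. Axin1, another scaffold of that complex, gave 148, 139 and 160.1 (FVB) against 160.5, 101 and 169 (GC13), which overlapped, with a 95% interval of -0.51 to 0.47.

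Axin2, a feedback inhibitor and a standard readout of beta-catenin signalling, gave 16.4, 21.9 and 17.7 (FVB) against 14.6, 7.46 and 23.6 (GC13). GC13 replicate 1 was below the FVB range, replicate 2 far below and replicate 3 above. The difference was -0.29 log2 units (SE 0.30, adjusted p = 0.672 by limma), and -0.02 (SE 0.21, adjusted p = 0.964 by limma) without replicate 2. Leaving out GC13 replicate 3 instead gave -0.56 (adjusted p = 0.325 by limma). The 95% interval from all arrays, -0.98 to 0.39, was wide.

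Among the nuclear factors, Tcf7l1 was higher on GC13 replicates 1 and 3, and Lef1 overlapped between the groups. Tcf7l1, a mostly repressing factor of follicle stem cells and the outer root sheath, gave 135, 135 and 160.4 (FVB) against 261, 159 and 315 (GC13). Replicate 2 lay inside the FVB range, and the other GC13 arrays lay well above it, while on the centred scale the groups did not overlap. The difference was 0.78 log2 units (SE 0.23, adjusted p = 0.187 by limma), and 0.97 (SE 0.16, adjusted p = 0.0175 by limma) without replicate 2. A dimmer Tcf7l1 probe set gave 113, 120.2 and 115 (FVB) against 202, 68.4 and 303 (GC13), with 0.54 log2 units (SE 0.42, adjusted p = 0.573 by limma) and, without replicate 2, 1.06 (SE 0.18, adjusted p = 0.0203 by limma). Both probe sets passed in that fit, with GC13 higher.

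Lef1, a factor of the hair matrix and shaft, gave 428, 379 and 474 (FVB) against 451, 334 and 611 (GC13). The difference was 0.16 log2 units (SE 0.22, adjusted p = 0.764 by limma), or 0.28 (SE 0.18, adjusted p = 0.305 by limma) without replicate 2, with a 95% interval from all arrays of -0.36 to 0.68. The dimmer Lef1 probe set gave 103, 103 and 97.9 (FVB) against 106, 43.8 and 100.4 (GC13), where only GC13 replicate 2 stood well apart. Its difference of -0.30 was opposite in sign and rested on that array, since without it the value was -0.00013. For the brighter probe set, leaving out GC13 replicate 3 gave 0.02 (adjusted p = 0.972 by limma). Tcf7l2, a relative of Tcf7l1, gave 95.5, 82.8 and 118 (FVB) against 81.8, 48.6 and 129.6 (GC13), and a dimmer probe set of it differed by -0.52 log2 units (SE 0.32, adjusted p = 0.472 by limma). Tle1 and Tle3, corepressors that silence Tcf targets where beta-catenin is lacking, overlapped between the groups and differed by 0.28 and 0.19. Tle3 gave 270.5, 279 and 334 (FVB) against 307, 347 and 303 (GC13).

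By role, the median difference was -0.12 for 10 ligand probe sets, 0.27 for 13 receptor, 0.29 for 6 secreted inhibitor, -0.14 for 6 cytoplasmic and 0.18 for 8 nuclear ones, beside 0.08 over all tested probe sets. Without GC13 replicate 2 the medians were 0.11, 0.40, 0.19, 0.05 and 0.06 in the same order, beside 0.02. The ligand median was then opposite in sign, and so was the cytoplasmic one, which with 1 probe set a gene stayed below 0 (-0.26 with all arrays and -0.02 without that array). With 1 probe set a gene and all arrays, the receptor median was -0.12, opposite to that over probe sets, with 5 genes above and 5 below 0.

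**Figure D3:**
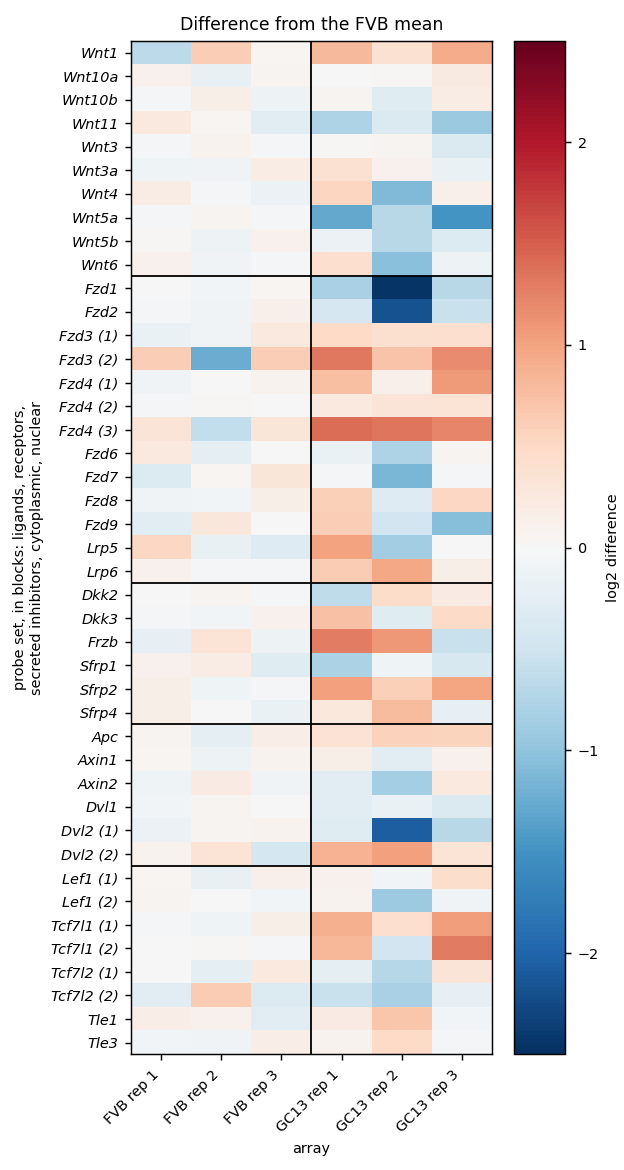
Difference of each array (columns) from the mean of the 3 FVB arrays for the 43 tested probe sets (listed down the side, in blocks by role), in centred log2 units, with red for higher and blue for lower. GC13 replicate 2 is bluest at Fzd1, Fzd2 and the brighter Dvl2 probe set (-2.45, -2.18 and -2.07), and Wnt5a is blue on all 3 GC13 arrays.

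GC13 replicate 2 held many of the lowest values. It was the lowest of the 6 arrays in 23 of the 43 probe sets (53.5%, background 33.8%), and on the centred scale in 18 (41.9%, background 20.7%). In 8 of the 43 it lay more than 1 log2 unit below the mean of GC13 replicates 1 and 3 (background 7.91%): Wnt4, Wnt6, Fzd1, Fzd2, Fzd7, Lrp5, the brighter Dvl2 and the dimmer Tcf7l1 probe set. In 0 it lay that far above (background 13.8%). Against the FVB mean, the median of the 43 was 0.21, -0.17 and 0.10 on GC13 replicates 1, 2 and 3, and over all tested probe sets it was 0.07, 0.21 and -0.02. The Gapdh ratio of 9.58 belongs to the same array, and its part in these values was not tested.

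**Figure D4:**
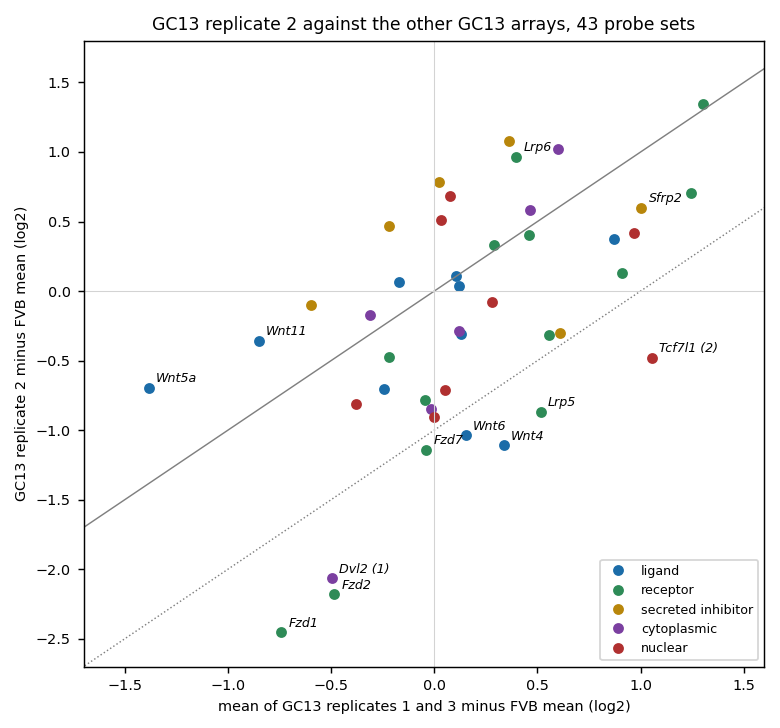
Each point is 1 of the 43 tested Wnt pathway probe sets, placed by the mean of GC13 replicates 1 and 3 (x axis) and by GC13 replicate 2 (y axis), both as log2 difference from the FVB mean, with a solid line at equal values and a dotted line 1 log2 unit lower. The 8 probe sets under the dotted line include Fzd1, Fzd2 and Dvl2, while Wnt5a and Wnt11 lie above the solid line, nearer to FVB on replicate 2.

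Beyond the members, 46 of 83 other listed pathway genes were tested, and 0 passed in either direction with all arrays, at a median of 0.07, 26 above and 20 below 0. Without GC13 replicate 2, 3 passed with GC13 higher and 4 lower, near the shares of all tested probe sets in that fit (6% higher and 8.8% lower). Ctnnb1, the gene of beta-catenin, gave 1429.8, 1442 and 1328 (FVB) against 1399, 1523 and 1096 (GC13), which overlapped. Ptk7, a polarity coreceptor, gave 110.3, 129 and 124 (FVB) against 74.7, 32.7 and 79.2 (GC13), without overlap, at -0.96 log2 units (SE 0.28, adjusted p = 0.184 by limma) and, without replicate 2, -0.66 (adjusted p = 0.0342 by limma). Apcdd1, a membrane inhibitor of Wnt signals in hair, gave 589, 506 and 565 (FVB) against 838, 631 and 774 (GC13), without overlap, at 0.50 log2 units (SE 0.20, adjusted p = 0.293 by limma) and, without replicate 2, 0.52 (adjusted p = 0.0802 by limma). Ptk7 and Apcdd1 were picked out after their values were seen.

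Of 44 listed genes often used as targets of beta-catenin 29 were tested, at a median of -0.13, 12 above and 17 below 0. With all arrays 1 passed with GC13 higher and 0 lower (background 0.0859% and 0.386%). Without GC13 replicate 2, 3 passed higher (Vcan, Twist1 and Eda, background 6%). In that fit 7 passed lower (Cd44, Msx1, Foxn1, Id2, Efnb1, Ephb3 and Dlx3, background 8.8%). Intensities did not overlap in 4 with GC13 higher and 11 lower (background 10.6% and 12.3%). The gene that passed with all arrays was Vcan, a matrix proteoglycan of the dermal papilla, which gave 142, 149.9 and 175 (FVB) against 366, 377 and 367 (GC13), at 1.32 log2 units (SE 0.21, adjusted p = 0.0489 by limma) and, without replicate 2, 1.21 (adjusted p = 0.0105 by limma). It did not pass when any 1 of the FVB arrays was left out, since no probe set then did. Ccnd1, a cyclin often read as a Wnt target, gave 472, 511 and 459 (FVB) against 578, 449 and 516 (GC13), which overlapped. Dlx3, among the lower targets, gave 726, 719 and 663 (FVB) against 355, 355 and 403 (GC13), without overlap. Its difference was -0.85 log2 units (SE 0.19, adjusted p = 0.126 by limma) and, without replicate 2, -0.91 (adjusted p = 0.0176 by limma). Dlx3 was picked out after its values were seen.

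Summed marker levels of several cell types stood apart between the groups, although of the markers in the lists named here only Vcan passed the test with all arrays. All 7 dermal fibroblast markers were above 0, with summed intensities of 7307 to 8036 in FVB and 9232 to 11051 in GC13. All 4 tested keratinocyte markers were above 0 as well (sums over 7 of 3941 to 4455 in FVB and 4580.4 to 6786 in GC13). Of these only Krt1 did not overlap, with 1435, 1216 and 1216 (FVB) against 3661, 1488.5 and 3338 (GC13). Krt10, Trp63 and Col17a1 overlapped and differed by 0.13, 0.02 and 0.49. Of 7 skeletal muscle markers 6 were above 0 (sums of 2430.3 to 2560.1 in FVB and 2733 to 3221 in GC13). The sums of 4 adipocyte markers were 1519.6 to 1609 in FVB and 1657 to 2413 in GC13. Of these 3 were above 0, only Lpl did not overlap, and the median of 0.31 was -0.03 without GC13 replicate 2. The sums of 4 Schwann cell markers were 495 to 549.6 in FVB and 595 to 664 in GC13, with 2 above and 2 below 0. Pmp22 was higher without overlap, with 367, 360 and 306 (FVB) against 462, 506 and 386 (GC13). Mbp was lower without overlap, with 92.9, 87.4 and 81.3 (FVB) against 54.8, 72.9 and 78.3 (GC13). Of 6 dermal papilla markers 5 were above 0 (sums of 514 to 548 in FVB and 718 to 836 in GC13), but without Vcan, the target gene above, the sums overlapped (339 to 399 in FVB and 341 to 470.2 in GC13). Of 7 endothelial markers 5 were above 0 (sums of 614 to 741 in FVB and 856 to 1116 in GC13), and without Eng the sums overlapped (422 to 548 in FVB and 497 to 608 in GC13). Cldn5 of the same list was lower without overlap, with 127, 140.1 and 135 (FVB) against 101, 61.9 and 83.6 (GC13), at -0.65 log2 units (SE 0.21, adjusted p = 0.212 by limma). The sums without Vcan or Eng, and the single markers given here, were chosen after seeing the data. No sums that leave out a marker were made for the other cell types, so their sums may also rest on a single marker. All 5 melanocyte markers were below 0 (sums of 993 to 1061 in FVB and 519 to 808 in GC13), as were 5 of 8 hair follicle markers. The sums overlapped for hair follicle (15809 to 16761 in FVB and 13786 to 17374 in GC13), macrophage and leukocyte (459 to 492 in FVB and 389 to 465 in GC13) and erythroid markers (1753 to 1809 in FVB and 953 to 2277 in GC13). Yet 4 of the 8 hair follicle markers, Krt83, Krt86, Padi3 and Msx2, were lower without overlap (background 12.3%), and 0 were higher without overlap (background 10.6%). Padi3 gave 510, 518 and 547 (FVB) against 384, 319 and 318 (GC13). Apart from 1 keratinocyte marker, Krt15, no marker of these lists stayed under an intensity of 5 on all arrays. The keratinocyte markers Krt5 and Krt14 were, like Krt15, too dim to be tested. The part of these cells in the values of Wnt5a, Sfrp2, Fzd4 and the other members was not tested.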

How the data were processed

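Total RNA of 3 FVB and 3 GC13 skin samples was compared, 1 array each. The deposited intensities are linear, and their mean, with 2% trimmed at each end, was near 100 on every array. The sources used here do not name the software, background correction or detection calls, so signal over background is unknown. Intensities summed to between 1626361 and 1736141 an array, and the number of arrays limits the precision.

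The 66 control probe sets were set aside. Gene names came from the platform annotation, updated by Entrez identifier through RefSeq (GRCm38.p6), in which all 52 member probe sets matched. Values were taken as log2(intensity + 2) and centred on the median of each array, and the lowest 25% of probe sets by mean were left out. The fit used limma 3.58.1 (R 4.3.3), lmFit with group only and eBayes, two-sided, adjusted by Benjamini-Hochberg over 9316 probe sets at a threshold of 0.05. It was tested on simulated data.

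Where probe sets of a gene were several, the gene stands by the one of highest mean, and others are given where sign or call differs. Values on every array were to be given for members past the threshold, the 12 genes with the smallest unadjusted p, hair follicle members and the brightest member of each family. Array values of further members, and upstream windows of genes that passed only without GC13 replicate 2, were added after seeing the data. The members and lists were chosen with earlier results of these data known. Alternatives were other pseudocounts, filters, scalings and variance models, array weights, a replicate block and leaving out each array in turn.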

Additional observations from a re-analysis of the deposited data

How the results depend on the processing

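No Wnt pathway probe set passed in 14 of the 16 alternatives. The exceptions were array weights, with 17 of 43 and 3850 over all tested probe sets, and leaving out GC13 replicate 2, with 8 and 1379. Leaving out 1 array gave between 0 and 8 members, and between 0 and 1379 probe sets in all where all arrays gave 44. The total was 0 without any 1 FVB array, 9 without GC13 replicate 1 and 11 without GC13 replicate 3. A pseudocount of 32 gave 119 calls, leaving out the lowest 50% gave 23 and no centring gave 28, none of them members. The replicate block gave 78 calls and 0 members. Deviations from the group means of same-numbered arrays correlated at -0.07, 0.18 and 0.36. FVB replicates 2 and 3 correlated best with the GC13 array of their own number, and FVB replicate 1 with GC13 replicate 2 (0.23). With 3 arrays a group, these correlations cannot tell whether same-numbered samples belong together. Without GC13 replicate 2, 16 member probe sets lay above FVB with no overlap, in place of 6. Over all tested probe sets that share also rose, from 10.6% to 28.7%. Those below FVB with no overlap numbered 8 with and without that array. The comparison without GC13 replicate 2, like the one on centred values, was chosen after seeing the data. Among 259 values of 16 genes under alternatives, 240 kept direction and side of the threshold, 17 newly passed with array weights or without GC13 replicate 2, and 2 were reversed, from the dimmer probe sets of Dvl2 (0.74) and Lef1 (-0.30, and -0.00013 without GC13 replicate 2). The members' median ran from -0.03 to 0.15. Wnt5a ran from -1.38 to -0.49, Fzd1 from -1.63 to -0.70 and Dkk3 from 0.09 to 0.71. The smallest differences of Wnt5a and Fzd1 came with a pseudocount of 32, which shrinks log2 differences of dim genes. Dkk3 had 0.09 without GC13 replicate 1 and 0.71 with array weights. The cause of the other shifts was not tested.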

Other observations

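Among the Wnt ligands, Wnt6 lies next to Wnt10a on chromosome 1 and Wnt10b next to Wnt1 on chromosome 15, with no other protein-coding gene between them in the RefSeq gene table. On GC13 replicate 2, Wnt6 had an intensity of 15.2, against 38.6 to 42.7 in FVB, and its neighbour Wnt10a had 108, against 113 to 134. On the centred scale, which takes out the lower median of that array, Wnt10a lay inside the FVB range, 0.04 log2 units from the FVB mean, and Wnt6 below it, at -1.04. Of the other neighbours, Wnt10b and Wnt1 both had their lowest GC13 value on that array, at 14.9 and 18.2. No test was made of these pairs.

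Dkk1, a secreted inhibitor that binds the Lrp coreceptors, was too dim to be tested. Its intensities were 1.17, 4.36 and 1.21 (FVB) against 7.94, 8.28 and 7.90 (GC13), each GC13 array above each FVB array. With no filter on dim probe sets the difference was 1.40 log2 units (SE 0.31, limma adjusted p = 0.135), which did not pass. Whether intensities this low lie above background is unknown.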
